A study of Rattus norvegicus with 4 samples.

Results

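Atf3, Jun, Sox11, Gadd45a and Cdkn1a were followed through spatial expression data of the rat trigeminal nerve, as 5 of the 32623 genes counted, each found once by its symbol. They were chosen because they were known to be higher in injured than in control tissue of these same samples, so their difference between the groups is given as a description, without a test. The tissue came from adult male Sprague–Dawley rats of wild type genotype. In the trigeminal neuralgia (TN) model, the trigeminal root of one side was chronically compressed, and root, semilunar ganglion and proximal branches of 3 animals lay on capture areas TN1, TN2 and TN3, 1 animal each. The healthy control (HC) area held tissue of 2 animals that the barcodes do not separate, and it counts as 1 sample. The series description takes it from the healthy side of animals of the TN group, whereas the methods call the controls sham-operated, and HC is used here as labelled. Each area holds a grid of barcoded spots, and the unit of measurement is the unique molecular identifier (UMI), a tag that counts 1 captured RNA molecule.

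When the axon of a sensory neuron is injured, the cell body leaves its normal transmission state and switches on a set of transcription factors. Activating transcription factor 3 (Atf3) and Jun, which forms the AP-1 dimer with Fos or ATF proteins, are the classical markers of this switch, and Sox11 is a factor of developing neurons that returns with it. Gadd45a, a stress sensor, and Cdkn1a, the cyclin-dependent kinase inhibitor p21, are better known as p53 targets that halt the cell cycle, although both also respond to nerve injury.

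The areas held 1587, 1256, 1917 and 2013 spots in TN1, TN2, TN3 and HC, with 23546025 to 41335930 UMIs in all. The median depth ran from 9487 UMIs per spot in TN1 over 14480 (TN3) and 14616 (HC) to 30808 (TN2). A spot covers a small piece of tissue with several cells, so more cells of a type and more RNA per cell cannot be told apart. Neuron-rich spots were those whose share of UMIs from 8 sensory neuron genes, such as Prph, Avil and Isl1, was at or above the 75th percentile of all spots. TN1, TN2 and TN3 held 278, 332 and 167 of them and HC 917, with 43.7 to 50.9 UMIs of these genes per 10000, against 10.7 to 18.7 in the other spots. Of the 1694 neuron-rich spots, 562 lay within 10% of the limit. In neuron-rich spots the macrophage marker genes also moved with the groups, at 5.83, 13.4 and 8.37 UMIs per 10000 in the TN areas and 2.43 in HC, and connective tissue genes were at 12.1, 32.0 and 25.7 against 12.6. Their part in the results below was not tested. The spot barcodes come from a shared list, and 2337 of 3573 occurred in more than 1 area.

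The start regions of 3 of the 5 members were found among the RefSeq promoters of assembly GRCr8, those of Sox11, Gadd45a and Cdkn1a. All 3 that were found are shown, because the products of Atf3 and Jun bind short motifs in promoters. Each line gives the 250 bases before the transcription start, 5′ to 3′ on the strand of the gene. Searched on both strands were the AP-1 motif TGANTCA, the cyclic AMP response motif TGANNTCA that Atf3 dimers also bind, and the p53 response decamer. Capitals mark the matches.
Sox11 (chr6:49738795-49739044, minus strand): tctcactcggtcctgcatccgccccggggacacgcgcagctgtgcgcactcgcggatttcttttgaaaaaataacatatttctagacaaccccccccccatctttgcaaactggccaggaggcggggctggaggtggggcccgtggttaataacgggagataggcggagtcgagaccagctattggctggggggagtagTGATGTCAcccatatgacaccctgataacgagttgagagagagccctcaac
Gadd45a (chr4:97486800-97487049, minus strand): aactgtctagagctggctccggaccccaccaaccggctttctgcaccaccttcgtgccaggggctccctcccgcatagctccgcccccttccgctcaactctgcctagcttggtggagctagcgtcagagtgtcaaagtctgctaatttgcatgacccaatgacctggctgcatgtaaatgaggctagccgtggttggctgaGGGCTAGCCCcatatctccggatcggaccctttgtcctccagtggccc
Cdkn1a (chr20:7150682-7150931, plus strand): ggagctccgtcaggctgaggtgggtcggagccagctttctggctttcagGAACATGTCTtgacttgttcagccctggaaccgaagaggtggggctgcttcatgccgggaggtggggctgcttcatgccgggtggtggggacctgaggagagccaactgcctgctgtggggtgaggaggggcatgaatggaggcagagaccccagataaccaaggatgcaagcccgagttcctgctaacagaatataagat
Sox11 held the cyclic AMP response motif 51 to 44 bases before the start. Gadd45a held a p53 decamer at 48 to 39 bases before the start and Cdkn1a at 201 to 192, and the AP-1 motif was in none of these windows. Over 33469 promoters, 13.2% held TGANNTCA, 6.64% the p53 decamer and 6.34% TGANTCA in a window of this length. A match describes letters and not a bound site.

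Atf3 was the member that separated TN from HC most widely. Scaled to a total of 1000000 UMIs (CPM), Atf3 over all spots was at 82.8, 260 and 176 in TN1, TN2 and TN3, and at 5.13 in HC. The level in HC rested on 212 UMIs, and the TN areas held 1949, 10086 and 5683. Every TN area stood far above HC, and the areas also differed among themselves, with TN2 highest and TN1 lowest. The mean of the TN areas was 173 ± 88.7 CPM (SD, n = 3), 33.7 times HC. At least 1 Atf3 UMI was seen in 31.5%, 83.4% and 66.1% of TN spots and in 9.34% of HC spots.

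Jun had a clear level in HC and a smaller difference. Its levels were 120, 260 and 207 CPM in the 3 TN areas and 74.7 in HC, so that the TN mean of 195 ± 70.6 (SD, n = 3) was 2.61 times HC. TN1 lay nearest to HC, at 1.60 times its level. Gadd45a, which binds cell cycle and stress kinases, was at 99.4, 214 and 169 CPM in TN1, TN2 and TN3 and at 36.0 in HC, a mean of 161 ± 57.6 (SD, n = 3) or 4.47 times HC. These 2 genes and Atf3 ranked the areas alike, with TN2 highest, then TN3, then TN1, then HC.

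Cdkn1a ranked the areas differently. It was at 17.5 CPM in TN1, 23.8 in TN2 and 30.4 in TN3, and at 8.83 in HC, with a TN mean of 23.9 ± 6.47 (SD, n = 3), 2.71 times HC. All TN areas lay above HC, with TN3 highest. In the spots that were not neuron-rich the difference was smaller, at 18.3, 25.3 and 32.8 CPM in TN1, TN2 and TN3 against 16.5 in HC. The mean was there 1.55 times HC, and TN1 was at 1.11 times. Cdkn1a was lower in neuron-rich than in other spots of every area, and the areas differ in their share of such spots. The part of this mix in the level over all spots was not tested.

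Sox11 was barely detected. The whole of TN1 held 13 Sox11 UMIs, TN2 25, TN3 14 and HC 7, in at most 1.91% of the spots of an area. The levels were 0.55, 0.64 and 0.43 CPM in TN1, TN2 and TN3 and 0.17 in HC. The exact 95% counting interval of HC, 0.068 to 0.349 CPM, overlapped those of TN1, 0.294 to 0.944, and TN3, 0.237 to 0.729, but not that of TN2, 0.417 to 0.952. The TN areas were all above HC, by 3.21 times on average, on these few molecules. At this depth Sox11 gives no map of the tissue, and a difference from HC rests on single UMIs, so it is left aside in most of what follows.

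The level over all spots was above HC in every TN area for 5 of 5 members, as it was for 34.9% of the 14902 genes tested. At 2-fold or more above HC in every TN area on CPM plus 1 there were 2 members, Atf3 and Gadd45a, against 0.899% of all genes. Since the members were chosen on this difference, nothing is read from the counts. In edgeR's quasi-likelihood test of the 3 TN areas against the single HC area, no gene passed an adjusted p of 0.05 in either direction (0% higher and 0% lower). Without adjustment 1271 genes had a p under 0.05, and 144 genes were called by DESeq2. HC has no spread of its own in this design, and injury and capture area cannot be told apart.

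**Figure D1:**
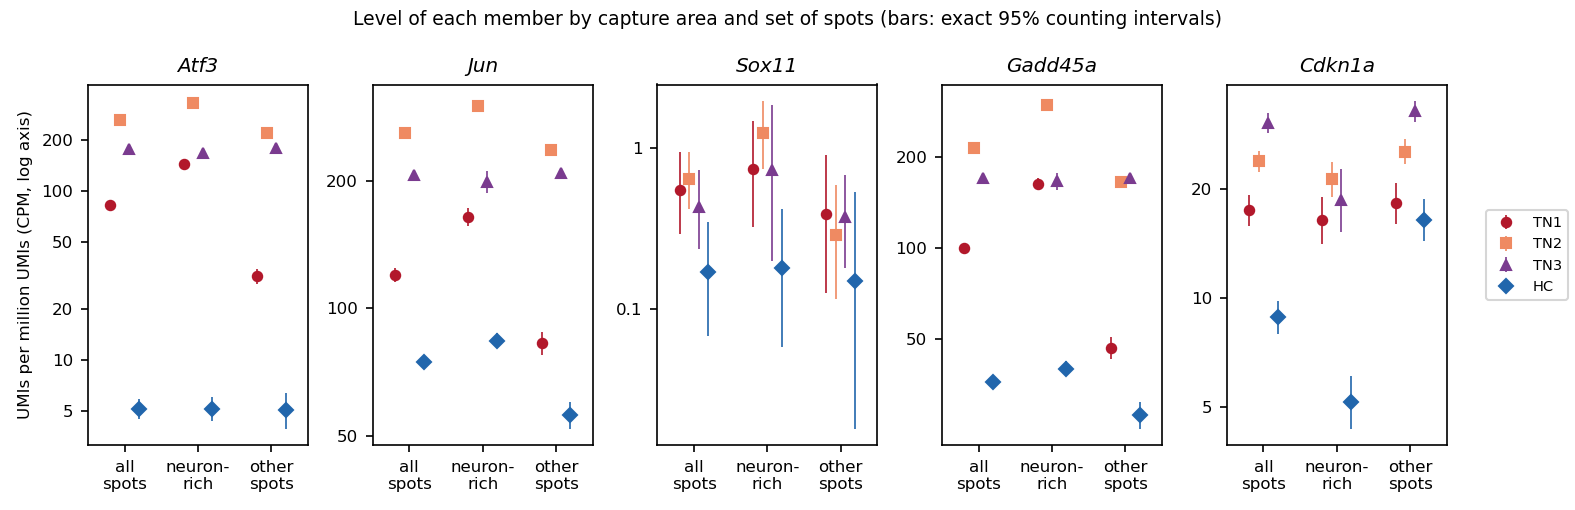
CPM (log axis) of each member in the 3 TN areas and the HC area, over all spots, neuron-rich spots and the other spots, with exact 95% counting intervals as bars. Atf3 lies between 82.8 and 260 CPM in the TN areas over all spots and at 5.13 in HC, while the wide bars of Sox11 rest on 7 to 25 UMIs per area.

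In neuron-rich spots, where sensory cell bodies are captured, Atf3 was at 145, 330 and 166 CPM in TN1, TN2 and TN3 and at 5.16 in HC. The TN areas were at 28.0, 63.9 and 32.2 times HC. The exact 95% counting intervals, which leave out the spread between animals, were 138 to 152 CPM in TN1 and 4.35 to 6.08 in HC. Gadd45a reached 163, 297 and 166 CPM against 39.9 in HC, and Jun 164, 299 and 198 against 83.7. Cdkn1a was at 16.4, 21.3 and 18.7 CPM in the TN areas against 5.16, or 3.64 times HC on average, and here its TN areas lay close together. Sox11 was at 0.75, 1.25 and 0.73 CPM, from 8, 18 and 4 UMIs, against 0.18 from 5 UMIs in HC. Atf3, Gadd45a and Cdkn1a, 3 of 5 members, were at least 2-fold above HC in every TN area, against 0.834% of 12837 genes. Above HC in every TN area were 5 of 5 members and 34.1% of these genes. edgeR called 0 genes higher (0%) and 1 lower (0.00779%), while 1353 had a p under 0.05 without adjustment and DESeq2 called 155.

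Whether the members were concentrated in neuron-rich spots was asked within the TN areas. The UMIs of HC do not enter this comparison. The limit for neuron-rich spots was set over the spots of all areas, HC included, so HC does bear on which TN spots count. In TN1 Atf3 was at 145 CPM in neuron-rich and 31.2 in the other spots, 4.65 times as much. In TN2 the values were 330 and 219 CPM, a ratio of 1.51, and in TN3 166 and 178, a ratio of 0.93. In TN1 the neuron-rich spots thus held 1549 of 1949 Atf3 UMIs, whereas in TN3 neuron-rich and other spots had much the same level. Gadd45a gave the same order, with ratios of 3.49, 1.80 and 0.97, and Jun followed with 1.99, 1.27 and 0.95. Cdkn1a was lower in neuron-rich spots of every TN area, with ratios of 0.90, 0.84 and 0.57. In HC the ratios were 1.02 for Atf3, 1.5 for Jun, 1.42 for Gadd45a and 0.31 for Cdkn1a.

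Fitted over the 3 TN areas with the area as a block, none of the 4 members tested passed the threshold in edgeR. Atf3 differed by 0.87 ± 0.39 on the log2 scale (SE, adjusted p = 0.122), Jun by 0.42 ± 0.18 (adjusted p = 0.114), Gadd45a by 0.87 ± 0.31 (adjusted p = 0.065) and Cdkn1a by -0.39 ± 0.15 (adjusted p = 0.082). Sox11 fell under the filter on low counts. In the same fit, 21.3% of 12450 genes were higher and 18.7% lower in neuron-rich spots, 40% in all, against 0 of the 4 members. The value of Atf3 rested on which areas entered. Without TN3 it was 1.37 ± 0.32 (adjusted p = 0.020 in edgeR) and without TN1 0.30 ± 0.16 (adjusted p = 0.137). Without TN3, Jun at 0.66 (adjusted p = 0.022) and Gadd45a at 1.31 (adjusted p = 0.0046) also passed in edgeR. With every spot thinned to 5000 UMIs, Atf3 passed at 0.85 (adjusted p = 0.023 in edgeR) and Gadd45a at 0.91 (adjusted p = 0.0041), an alternative added after the data were seen. Cdkn1a passed without TN1, at -0.45 (adjusted p = 0.029 in edgeR), and without the spots that hold central neuron genes, at -0.56 (adjusted p = 0.0081). Over 14 alternatives in all, Gadd45a passed in 7, Cdkn1a in 4, and Jun and Atf3 in 2 each. Many of all genes passed there too. Without TN1, 3061 genes were higher and 2768 lower of 13085, and without TN3, 2039 and 1682 of 12741. Without the spots that hold central neuron genes it was 3417 and 3331 of 12335, and with thinned spots 1748 and 1499 of 10059. No result about the members is read from how often they passed. Sox11 reached the test in 6 alternatives and passed in 3 of them, at 1.26 to 1.70 on the log2 scale, on 4 to 18 UMIs per area in neuron-rich spots as defined above.

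Among spots rich in the genes of other tissues, Atf3 was lowest where central myelin genes such as Mobp and Mog were high. In these spots, with neuron-rich spots left out, it was at 17.6, 62.3 and 46.4 CPM in the TN areas and at 4.12 in HC. All TN areas were again above HC, by 10.2 times on average. In spots rich in peripheral myelin genes such as Prx and Drp2, Atf3 was at 55.3, 227 and 155 CPM against 6.68, and in spots rich in connective tissue genes such as Dcn and Col1a1 at 53.3, 245 and 217 against 7.07 from 5 UMIs. In macrophage-rich spots it was at 42.3, 246 and 201 CPM, against 3.93 from 3 UMIs in HC. Ordered by the TN mean, the 10 sets of spots ran from neuron-rich (214 ± 101 CPM, SD, n = 3) to central myelin-rich (42.1 ± 22.7). No neighbours in this order differed by more than the SD of the TN areas. This SD is between areas and leaves out that the sets share areas. Apart from the neuron-rich set, the sets may also share spots. Of the 924 TN2 spots that were not neuron-rich, 420 were satellite glia-rich, 451 connective tissue-rich and 474 macrophage-rich, so some counted more than once. Similar levels in these sets may therefore come from the same spots. Astrocyte-rich spots, at 23.5, 110 and 105 CPM, were above central myelin-rich spots in every TN area. In TN3 neuron-rich spots, at 166 CPM, lay below connective tissue-rich and macrophage-rich spots.

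Atf3, Jun and Gadd45a were each above HC in every TN area in 10 of 10 sets. The lowest mean ratio of Jun was 1.96 in central myelin-rich spots and the highest 6.92 in macrophage-rich spots, where HC was at 28.8 CPM from 22 UMIs. Gadd45a ran from 2.65 times HC in spots with central neuron genes to 7.39 times in connective tissue-rich spots, where HC was at 19.8 CPM from 14 UMIs. The low counts in HC limit both of the upper values.

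Cdkn1a was the exception to this spread. In central myelin-rich spots it was at 20.4, 27.0 and 30.8 CPM in TN1, TN2 and TN3 and at 25.2 in HC, so the groups overlapped and the mean ratio was 1.03. In astrocyte-rich spots it was at 25.2, 27.7 and 39.6 CPM against 23.7 in HC, and in macrophage-rich spots at 23.1, 28.3 and 39.4 against 27.5. HC thus lay within the range of the TN areas in central myelin-rich and macrophage-rich spots and just below it in astrocyte-rich spots, and well below it in neuron-rich spots, at 5.16 CPM. In peripheral myelin-rich spots HC was also below the TN areas, at 8.35 CPM against 18.3, 23.5 and 31.8.

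The difference between TN and HC in neuron-rich spots less that in central myelin-rich spots was fitted in edgeR as an interaction with the area as a block, a comparison chosen after these values were seen. It rests on the contrast by which the members were chosen and on the single HC area, so its values are a description. The fitted value on the log2 scale was 1.78 for Cdkn1a, 2.05 for Atf3, 0.79 for Gadd45a and 0.33 for Jun. Over all 12491 genes the fit called 0.00801% higher and 0% lower, with 527 at a p under 0.05 before adjustment, and none of the members was called.

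**Figure D2:**
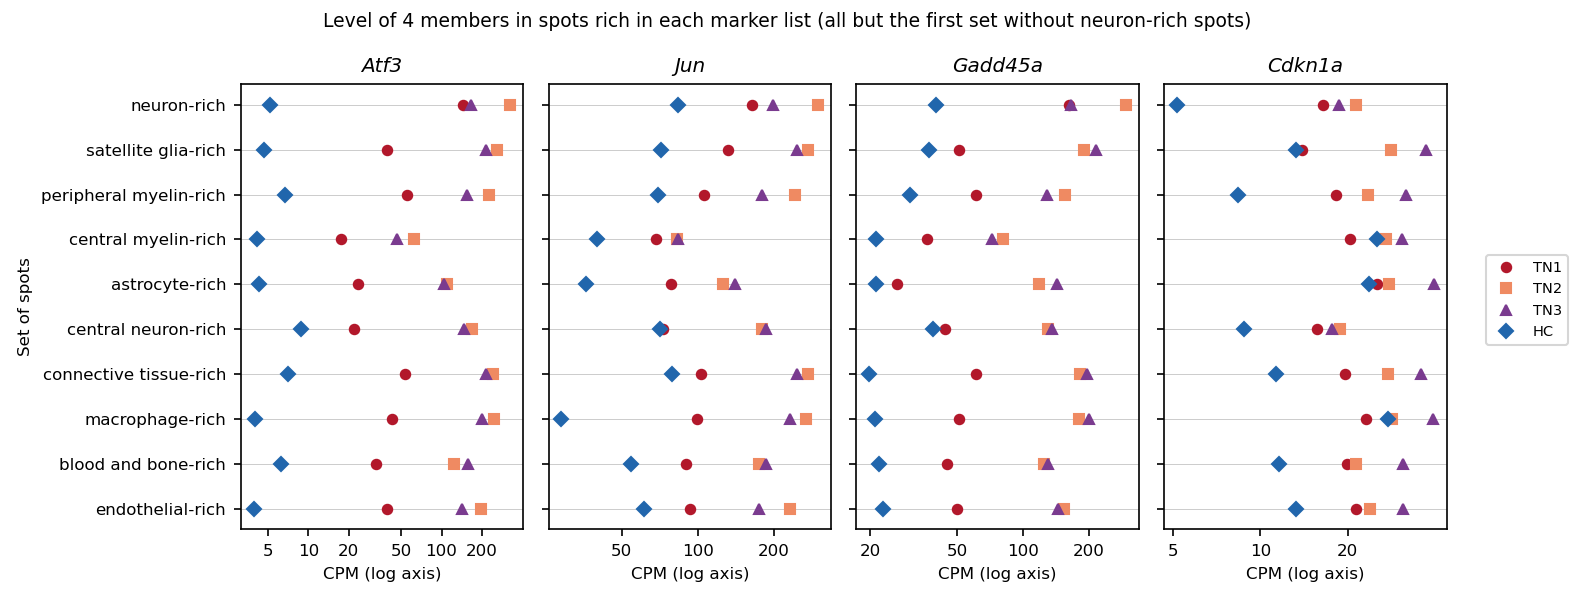
CPM (log axis) of Atf3, Jun, Gadd45a and Cdkn1a in spots rich in each marker list, with 1 point for each capture area. HC lies left of all TN areas in every set for Atf3, Jun and Gadd45a, and among them in central myelin-rich and macrophage-rich spots for Cdkn1a.

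Atf3, Jun and Gadd45a were unevenly spread over the spots of the TN areas. The tenth of spots with most Atf3 UMIs held 76.9% of all Atf3 UMIs in TN1, 31.7% in TN2 and 42.8% in TN3. Depth per spot enters this ranking, and low counts raise the share. Cdkn1a was at 60.1%, 42.7% and 47.4% in TN1, TN2 and TN3, and Atf3 in HC at 100%. To set areas of different depth side by side, each spot was thinned to 5000 UMIs and shallower spots were left out, 3, 2 and 21 of the neuron-rich spots of TN1, TN2 and TN3 and 46 of HC. After thinning, Atf3 was found in 42.2% of neuron-rich spots in TN1 (exact 95% interval 36.3 to 48.3), 75.8% in TN2 (70.8 to 80.3) and 49.3% in TN3 (41.0 to 57.7), against 3.67% in HC (2.53 to 5.15). In HC 2 of 871 spots had more than 1 Atf3 UMI, and in TN2 85 of 330 had 3 or more. For central myelin-rich spots, which should hold few sensory cell bodies, the thinned shares were 10.2%, 23.5% and 22.7% in TN and 1.78% in HC. In TN3 the median depth of these 349 spots was 4434 UMIs, so thinning left most of them out and the share describes the deeper ones. The intervals cover counting error only.

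Within thinned neuron-rich spots the variance of Atf3 over its mean was 1.40, 1.19 and 1.26 in the TN areas and 1.08 in HC, where 1 is what even sampling gives. Jun had 1.29, 1.21 and 1.25 in TN and 1.0 in HC, and Gadd45a 1.29, 1.28 and 1.44 against 0.99. For these 3 genes some TN spots held more and others less than even sampling would give. Jun and Gadd45a in HC were near 1, but the ratio also comes nearer to 1 as the mean falls. Jun had 0.87, 1.61 and 0.95 UMIs per spot in TN and 0.41 in HC, and Gadd45a 0.72, 1.44 and 0.96 against 0.20. The unevenness of TN and HC is therefore not compared. Cdkn1a was at 1.0, 0.91 and 0.89 in TN and 1.06 in HC, on 17 to 32 UMIs per area. The thinned share of neuron-rich spots with Cdkn1a was 8.36%, 9.70% and 11.6% in TN and 2.53% in HC.

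**Figure D3:**
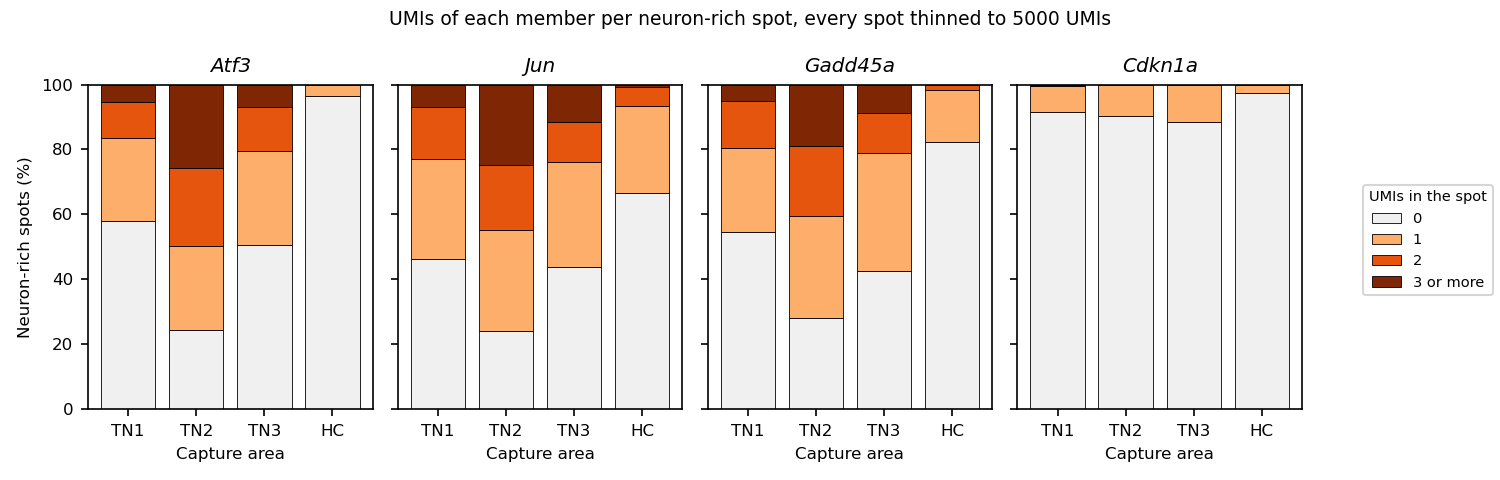
Share of neuron-rich spots with 0, 1, 2 and 3 or more UMIs of a member (in percent) in each capture area, with every spot thinned to 5000 UMIs. Spots with Atf3 make up 42.2%, 75.8% and 49.3% of TN1, TN2 and TN3 and 3.67% of HC, while Jun and Gadd45a are also found in HC.

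Over all spots of an area, the rank correlation of Atf3 with sensory neuron genes was 0.34, 0.57 and 0.12 in TN1, TN2 and TN3, and 0.14 in HC. With central myelin genes it was -0.39, -0.57 and -0.33 in the TN areas and -0.16 in HC. With peripheral myelin genes it was 0.20, 0.47 and 0.24, and with connective tissue genes 0.19, 0.28 and 0.33. With satellite glia genes such as Fabp7 and Kcnj10 it was 0.27, 0.36 and 0.33. Atf3 thus went with the peripheral side of the tissue in each TN area. In TN3 it went more with connective tissue and satellite glia genes than with neuron genes. Spots of an area share depth, and Atf3 also correlated with total UMIs at 0.41, 0.46 and 0.50. After thinning, the values for sensory neuron genes were 0.24, 0.37 and 0.03 in TN1, TN2 and TN3, for central myelin genes -0.25, -0.37 and -0.21, and for connective tissue genes 0.13, 0.18 and 0.17. For peripheral myelin genes they were 0.14, 0.27 and 0.06, and for satellite glia genes 0.19, 0.23 and 0.15.

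Jun and Gadd45a were likewise negative with central myelin genes in every TN area. After thinning, Jun was at 0.17, 0.25 and -0.01 with sensory neuron genes and at -0.20, -0.29 and -0.15 with central myelin genes, and Gadd45a at 0.24, 0.27 and 0.05 and at -0.22, -0.20 and -0.16. The largest value of Cdkn1a with any list in TN after thinning was 0.10, with macrophage genes in TN3, and in HC it was at 0.14 with central myelin, 0.16 with astrocyte and -0.15 with sensory neuron genes. Over the spots of an area these are descriptions, since spots are not replicates.

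**Figure D4:**
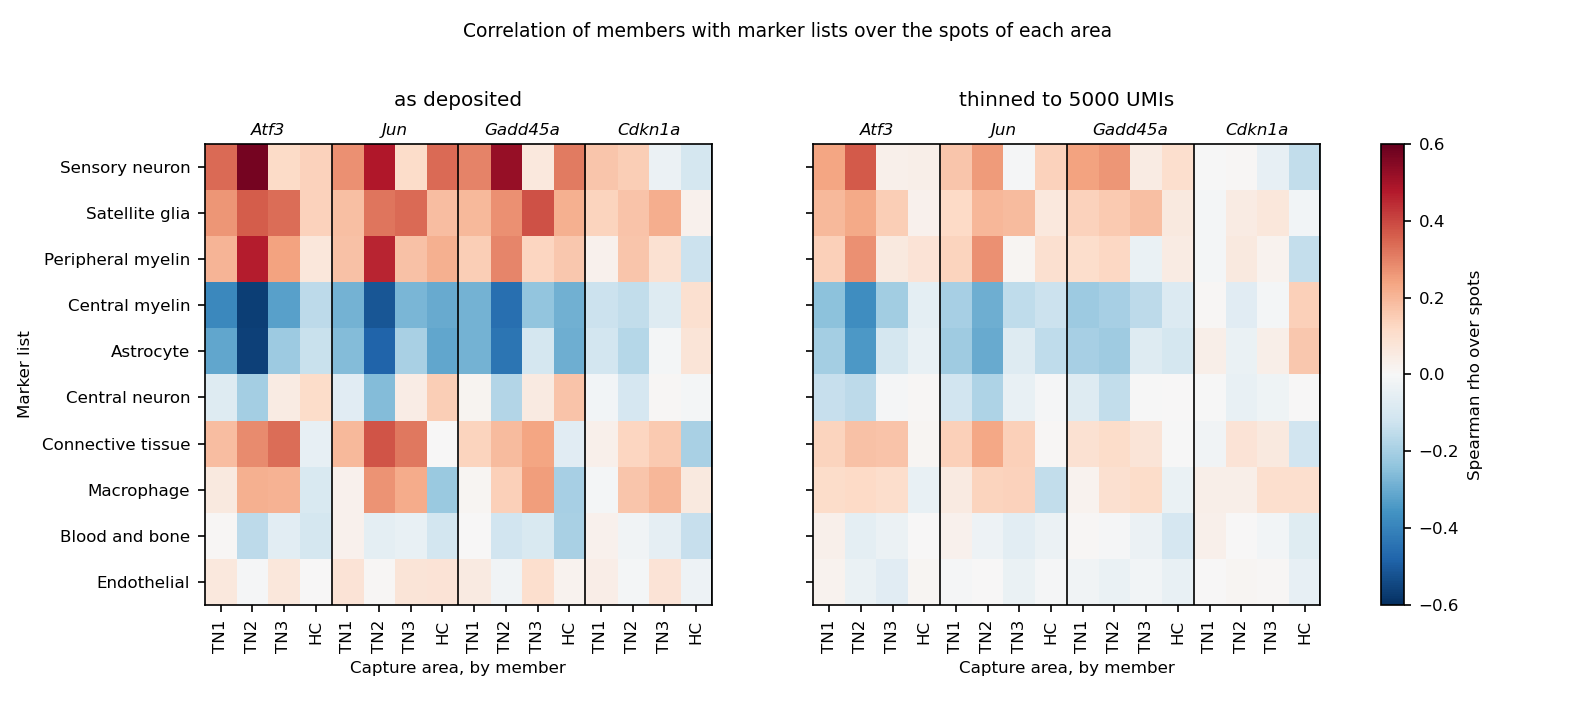
Spearman correlation over the spots of each capture area between 4 members (UMIs per 10000) and the share of UMIs in each marker list, with UMIs as deposited (left) and with every spot thinned to 5000 UMIs (right). Red is positive and blue negative, and Atf3, Jun and Gadd45a are negative with central myelin in all 4 areas.

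Within neuron-rich spots of the TN areas Atf3, Gadd45a and Jun were positively correlated. As deposited, the rank correlation of Atf3 with Gadd45a was 0.69, 0.66 and 0.55 in TN1, TN2 and TN3, and with Jun 0.42, 0.46 and 0.57. In HC these were 0.03 and 0.04, but only 127 of 917 neuron-rich spots there held an Atf3 UMI, which limits both values. After thinning, Atf3 with Gadd45a was at 0.34, 0.14 and 0.18 and Atf3 with Jun at 0.12, 0.15 and 0.27. Cdkn1a was near 0 with Atf3 after thinning, at 0.02, 0.06 and 0.04, and Sox11 was too sparse to be read.

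Among 7897 genes found in at least 10% of the spots of every TN area, the pattern most like that of Atf3 was that of Kif22, a gene annotated as a kinesin, with a mean Pearson r of 0.51 over the 3 TN areas. The unnamed locus AABR07007068.1 (0.50), Gadd45a (0.47), Ngfr, the low-affinity neurotrophin receptor (0.46), and the proteoglycan Gpc1 (0.45) came next. Jun was most like AABR07007068.1, Ngfr, Atf3, the galectin Lgals1 and Kif22, at 0.45 to 0.41. Gadd45a was most like Atf3, Kif22, AABR07007068.1, Jun and Ngfr, at 0.47 to 0.40. The list of Gadd45a thus held both Atf3 and Jun, that of Atf3 held Gadd45a and that of Jun held Atf3. Jun came directly after the genes named for Atf3, at 0.448 against 0.452 for Gpc1. Gadd45a came directly after those named for Jun, at 0.411 against 0.414 for Kif22. No difference among the 3 genes is therefore read from where the lists end. Cdkn1a (Vim, Cd63, Serf2, Islr and Igfbp7, 0.13 to 0.12) and Sox11 (Reg3b, Hopx, Bcs1l, Taf5l and Tbrg4, 0.09 to 0.07) had no close partner. Depth is shared by all genes of a spot and enters these values. In neuron-rich spots alone, Atf3 was most like Kif22 (0.71), Gadd45a (0.64), the small heat shock protein Hspb1 (0.64), the neuropeptide gene Gal (0.62) and Tubb2b (0.61).

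Which genes shared spots with Atf3 at equal depth was tested in the thinned neuron-rich spots of the TN areas. Spots with an Atf3 UMI (116 in TN1, 250 in TN2 and 72 in TN3) were summed per area and set against those without (159, 80 and 74). The area was a block and Atf3 itself was left out. Before thinning, 79.5%, 99.4% and 79.0% of the neuron-rich spots of TN1, TN2 and TN3 held an Atf3 UMI. Many spots without Atf3 here thus held some before, so the split sets more Atf3 against less. In edgeR, 37 of 6020 genes were higher (0.615%) and 39 lower (0.648%) in spots with Atf3. Gadd45a was among those higher. It was at 221 CPM with Atf3 and 89.3 without in TN1, at 308 and 225 in TN2 and at 236 and 149 in TN3, higher in 3 of 3 areas. The fitted difference was 0.78 ± 0.13 on the log2 scale (SE, adjusted p = 2.5e-06 in edgeR), and its p ranked 3 among all genes. Jun was at 209 and 150 CPM in TN1, 338 and 275 in TN2 and 236 and 143 in TN3, also higher in 3 of 3 areas, by 0.45 ± 0.12 (adjusted p = 0.018 in edgeR). Cdkn1a was at 17.2 and 17.6, 21.6 and 12.5, and 25.0 and 21.6 CPM, which did not pass, at 0.30 ± 0.40 (adjusted p = 0.911 in edgeR). Sox11 had too few UMIs to be tested.

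The call of Gadd45a held with each TN area left out, at 0.54 to 1.03 on the log2 scale (adjusted p = 0.041 to 2.2e-05 in edgeR). The call of Jun was lost without any 1 area (adjusted p = 0.174 without TN1, 0.133 without TN2 and 0.233 without TN3 in edgeR). DESeq2, with 1 gene called in all, left both genes above the threshold, at an adjusted p of 0.718 for Gadd45a and 1.0 for Jun. Without the area as a block, edgeR called no gene. The fit held only the sums of thinned UMIs with and without Atf3 of each TN area. Values of p as small as that of Gadd45a cannot rest on the spread of these few sums alone. How far the SE and p of this comparison, here and below, cover the spread between animals was not tested. They are therefore not read as evidence across animals.

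The 18 regeneration-associated genes listed are those that injured sensory neurons switch on for survival and axon growth. In the Atf3 comparison 10 were tested. Of these, 7 were higher and none lower in spots with Atf3, against 0.615% and 0.648% of all genes. Their median was 0.48 on the log2 scale against 0.00 over all genes. The list was chosen with earlier results of these data known, so it is no independent evidence of this direction. Gal was at 360 and 156 CPM with and without Atf3 in TN1, 869 and 522 in TN2 and 431 and 178 in TN3, and differed by 0.98 ± 0.10 (SE, adjusted p = 3.2e-18 in edgeR). Vip, a neuropeptide, differed by 1.38 ± 0.24 and Csrp3, the muscle LIM protein that injured neurons make, by 1.11 ± 0.21. Hspb1 (0.40 ± 0.07), the growth cone protein Gap43 (0.33 ± 0.08), the stathmin Stmn4 (0.57 ± 0.14) and the tubulin Tubb6 (0.67 ± 0.19) were the others. Kif22, the gene most like Atf3 over spots, was also higher, by 0.71 ± 0.13 (adjusted p = 5.4e-05 in edgeR).

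The long sensory neuron list has 15 genes. Of 11 tested, none was higher and 3 were lower with Atf3. Among these were the sodium channel gene Scn11a (-0.66 ± 0.14) and Calca, which encodes the neuropeptide CGRP (-0.26 ± 0.07). Scn11a was at 140 and 185 CPM with and without Atf3 in TN1, 92.8 and 160 in TN2 and 131 and 243 in TN3, lower with Atf3 in 3 of 3 areas. The sum of the 8 genes that defined neuron-rich spots was at 53.1 and 45.9 UMIs per 10000 with and without Atf3 in TN1, 48.8 and 47.6 in TN2 and 45.1 and 41.4 in TN3.

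The spots with and without Atf3 also differed in genes of other tissues. Of 7 macrophage genes tested, Lyz2 (0.41 ± 0.09) and C1qc (0.84 ± 0.21) were higher, and the summed list of 9 genes was at 6.95 and 4.97 UMIs per 10000 in TN1, 15.0 and 12.0 in TN2 and 9.31 and 7.62 in TN3. With spots rich in macrophage or connective tissue genes left out, an alternative added after the data were seen, Gadd45a was higher by 0.84 ± 0.14 and Jun by 0.51 ± 0.13 (adjusted p = 4.7e-06 and 0.013 in edgeR). It kept 114 and 152 spots with and without Atf3 in TN1, 169 and 61 in TN2 and 64 and 71 in TN3. Spots below the limit may still hold such tissue. With all spots kept, none of the 6 connective tissue genes tested passed. Lower with Atf3 were Mobp (-1.10 ± 0.27), 1 of 2 central myelin genes tested, and the haemoglobin gene Hba-a3 (-0.79 ± 0.20), 1 of 3 tested of the blood and bone list. In TN1 the central myelin list was at 1.12 and 2.15 UMIs per 10000 with and without Atf3, the astrocyte list at 2.28 and 4.15 and the blood and bone list at 5.43 and 7.45. In TN2 and TN3 the central myelin list was at 0.85 and 0.95 and at 0.86 and 0.76, and the astrocyte list at 3.29 and 3.30 and at 4.03 and 3.35. The part of these differences in tissue in the values of Gadd45a, Jun and the other genes was not tested.

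**Figure D5:**
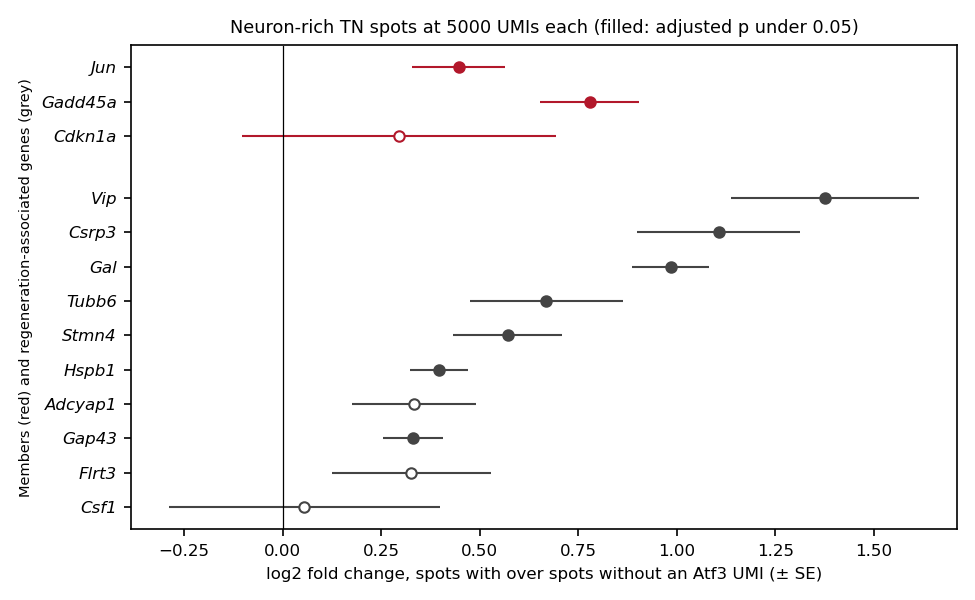
Log2 fold change with its SE between neuron-rich TN spots with and without an Atf3 UMI, for 3 members (red) and the 10 regeneration-associated genes tested (grey), with filled points past an adjusted p of 0.05. Gadd45a at 0.78 and Jun at 0.45 lie above 0, and the bar of Cdkn1a crosses it. How far the SE covers the spread between animals was not tested.

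None of the members' pathway partners that could be tested passed in the comparison with and without Atf3. Over all 6020 genes only 1.26% passed, so nothing is read from the absence of calls in lists this short. Of the AP-1 subunits other than Jun, 2 of 9 could be tested against Atf3 and neither passed, with Junb at -0.17 ± 0.36 and Jund at 0.04 ± 0.13 on the log2 scale. None of 8 tested genes of the ATF and C/EBP family passed, such as Atf4 at 0.00 ± 0.11 and Cebpd at 0.45 ± 0.20. The same held for 4 other regeneration-linked transcription factors, among them Stat3 (0.04 ± 0.12) and Smad1 (0.44 ± 0.24), and for 7 genes of the JNK pathway, whose kinases phosphorylate Jun. Of the p53 and growth arrest list, 14 were tested and none passed, with Ccng1 at 0.13 ± 0.11 and Ddit4 at 0.06 ± 0.13. Neither did any of 4 repair Schwann cell genes or 4 immediate early genes.

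In the comparison of neuron-rich with other spots of the TN areas, the list counts stand beside 21.3% of all genes higher and 18.7% lower. Of 5 AP-1 subunits tested, none was higher and Fos (-1.32 ± 0.33) and Junb (-0.57 ± 0.14) were lower in neuron-rich spots, and 7 of 10 immediate early genes were lower, among them Egr1 (-0.79 ± 0.14), with none higher. In the ATF and C/EBP family, Atf4 (0.39 ± 0.09), Ddit3 (0.49 ± 0.09) and Crem (0.31 ± 0.09) were higher and Atf1 and Cebpa lower, of 14 tested, shares near those of all genes. Klf7 (1.23 ± 0.13), Smad1 (0.77 ± 0.10) and Stat3 (0.76 ± 0.17), factors linked to axon growth, were higher, and Klf4, Klf6 and Egr1 lower, of 9 tested. Of 12 JNK pathway genes, Mapk10, the neuronal JNK3 (1.35 ± 0.17), Mapk8ip2 (1.21 ± 0.20) and Map3k12 (0.59 ± 0.13) were higher and Map3k11 (-0.41 ± 0.12) and Dusp10 (-0.92 ± 0.23) lower, again near the shares of all genes.

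In the p53 and growth arrest list, Ccng1 (0.97 ± 0.15), Gadd45g (0.86 ± 0.17) and Plk3 (0.73 ± 0.12) were higher and 6 of 20 lower, not far from the shares of all genes. The cell cycle inhibitors Cdkn1b (-0.85 ± 0.10) and Cdkn1c (-1.93 ± 0.20), relatives of Cdkn1a, were among the lower. Of the repair Schwann cell list, Bdnf alone was higher (1.55 ± 0.11) and 6 of 9 were lower, among them Sox2 (-0.72 ± 0.10) and Olig1 (-2.65 ± 0.12), a list name that covers genes of other glia too. Of the regeneration-associated genes, 10 of 16 were higher and Csf1 (-0.44 ± 0.10) was lower, with a median of 1.90 against -0.02 over all genes. This list was chosen with earlier results of these data known. Gap43 was higher by 2.01 ± 0.11, Gal by 2.02 ± 0.18 and Hspb1 by 1.49 ± 0.19. The difference of these genes between neuron-rich and other spots was thus past the threshold where that of Atf3 was not, and the 2 were not tested against each other.

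Beside the members, in the neuron-rich spots of TN against HC, 10 of 16 regeneration-associated genes were 2-fold or more above HC in all 3 TN areas. None of the 5 AP-1 subunits, 13 JNK pathway genes or 20 p53 and growth arrest genes were. Over all 12837 genes the share was 0.834%, so nothing is read from the lists with none. The regeneration-associated genes were chosen with earlier results of these data known, so their count is a description. Of the ATF and C/EBP family, Cebpd alone was 2-fold or more above HC in all 3 TN areas, at 49.8, 87.1 and 58.9 CPM against 17.6. Gal was at 256, 777 and 296 CPM against 22.1, and Gap43 at 867, 1315 and 937 against 467. Jund was below HC in every TN area, at 165, 210 and 149 CPM against 249, and Atf4 was above it, at 265, 292 and 275 against 223. Ccng1, another p53 target, was at 242, 273 and 235 CPM against 185.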

How the data were processed

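UMI counts per gene and spot of 3 TN areas and 1 HC area were analysed. The authors counted them with Space Ranger 1.2.0 and deposited them as whole-number counts without normalization, in a single matrix of 32623 genes and 6773 spots whose barcode suffix gives the area. Genome build and annotation: not given in the sources used here. Any equalising of depth between the areas by the authors was not examined. Spots were not taken as replicates. UMIs were summed per area and set of spots and tested by the quasi-likelihood method of edgeR 4.0.16 in R 4.3.3, after filterByExpr and TMM scaling, with the Benjamini-Hochberg adjustment at 0.05 over all genes tested. CPM are scaled to a total of 1000000 UMIs per sum, without TMM. HC has no replicate and the TN areas are 3 animals.

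A set of spots rich in a marker list had a share of UMIs at or above the 75th percentile over all spots, or above 0 for the central neuron list, whose percentile is 0. All marker genes but Pecam1, and all list genes but Sox4 and Bbc3, were found. Spots were thinned without replacement to 5000 UMIs, and no doublet caller was run. Shares and CPM carry exact 95% intervals (binomial and Poisson). Named were the members, the 5 genes most like each (Pearson r of ln of 1 plus UMIs per 10000, mean of the TN areas) and, of 8 pathway lists, the 3 genes with most UMIs in neuron-rich TN spots and those past the threshold (the 6 of lowest p where over 6), besides markers that passed, of which 1 is not reported here. The members and lists were chosen with earlier results of these data known, and the list of regeneration-associated genes is no independent evidence of its direction. The 2 sums of an area come from the same animal, which is the pairing behind the block. Alternatives were DESeq2 1.42.0, its size factors, no filter, each TN area left out, other limits, lists and depths, and no block. Only the edgeR tests were run on simulated counts, drawn with a common spread for all genes, no area effect and no split of spots by Atf3. Such counts cannot show how far the tests hold where these features are present.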

Additional observations from a re-analysis of the deposited data

How the results depend on the processing

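HC is 1 area of 2 animals that the barcodes do not separate. No paired analysis was therefore possible for the 2 comparisons of TN with HC. Their counts of genes past the threshold were 0 over all spots and 1 in neuron-rich spots with edgeR. They rose to 144 and 155 with DESeq2, and leaving out 1 TN area gave 0 to 2171 and 0 to 820, the upper values without TN1. In neuron-rich spots no filter gave 18 and the 65th percentile 0. Between neuron-rich and other spots, 4980 genes passed, 1710 with no replicate block, 3247 with every spot thinned and 2219 to 5829 with 1 area left out, the lowest without TN2. With and without Atf3, 76 passed, but 1 with DESeq2, 0 with no replicate block, 33 and 28 at the 65th and 85th percentiles, 14 with the long neuron list, 50 without macrophage-rich and connective tissue-rich spots, and 17 to 56 with 1 area left out, the lowest without TN2. It was 111 with spots thinned to 10000 UMIs and 91 with at least 2 Atf3 UMIs. For the interaction 1 passed, 3 with DESeq2, 58 with no filter, 0 with the long list and 0 to 217 with 1 area left out, the highest without TN3. With no replicate block, Gadd45a and Jun no longer passed beside Atf3.

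The ratios of the members to HC over all spots moved by less than the SD of the TN areas in 9 of 9 alternatives, thinned Sox11 having no HC value. Thinning brought the mean correlation over the TN areas nearer to 0, to -0.28 for Atf3, -0.22 for Jun, -0.192 for Gadd45a and -0.0234 for Cdkn1a with central myelin genes, and 0.161, 0.173 and 0.0917 for Atf3, Jun and Gadd45a with connective tissue genes. With peripheral myelin genes it left 0.158 for Atf3 and 0.0632 for Gadd45a. That of Cdkn1a with sensory neuron genes turned to -0.0152. Of the 5 genes most like Atf3, Jun and Gadd45a, 2 each remained in neuron-rich spots, 1 for Sox11 and 0 for Cdkn1a. The causes were not tested.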
